A study of Mus musculus with 6 samples.

Results

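The axon guidance ligands and receptors were the Eph receptors, ephrins, semaphorins of classes 3 to 7, plexins, Slits, Robos, netrins, UNC5 receptors, Dcc and neogenin. They were chosen by gene symbol alone, which found 68 of the 24411 genes in the table. Neuropilins were not in this set and are described with the partner genes. The members were read in 6 bulk RNA-seq libraries of mouse endothelial cells, with 3 libraries of line bEnd.3 and 3 of line UV2, which the labels also write as UV♀2. bEnd.3 comes from BALB/c brain endothelium that was transformed by the middle T antigen of polyomavirus. UV2 is of strain (BALB/c x C57BL/6)F1, and its tissue of origin and way of immortalisation were not given in the sources used here. No treatment that differed between the groups is named in the labels, and both lines had been grown to confluency on 10-cm dishes, washed and held in medium without serum for 3 days. Each group is a single line, so line, strain, tissue of origin, way of immortalisation and passage cannot be told apart.

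Axon guidance proteins were named for steering growing nerve fibres, and the same families act in blood vessels. Eph receptors are tyrosine kinases that bind ephrins on neighbouring cells, where A-type ephrins are held by a lipid anchor and B-type ephrins span the membrane and can signal back into their own cell. Ephrin-B2 marks arterial endothelium and its receptor EphB4 marks venous endothelium. Semaphorins bind plexins, with neuropilins as partners for most of class 3, Slits bind Robos, and netrins bind Dcc, neogenin and UNC5 receptors. Plexin-D1, Robo4 and Unc5b are the family members best known from endothelium.

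Library totals ran from 21306441 to 28748128 expected counts (the authors' estimates of reads per gene). Endothelial markers were present in both lines. The summed level of 10 endothelial markers was 12963 to 13822 CPM (expected counts scaled by TMM-normalised library size) in bEnd.3 and 13154 to 14661 CPM in UV2, and in UV2 1 of them rose, 3 fell and 6 were not called. Among markers of neurons and glia, Tubb3 was higher in UV2. The list summed to 1.75 to 2.27 CPM in bEnd.3 and 3.93 to 4.90 CPM in UV2, and Aqp4 and Olig2 were at 0 in every library. Of 10 mural and fibroblast markers, 3 were tested and all were higher in UV2 (Col3a1, Pdgfra and Pdgfrb). That list summed to 3.53 to 3.87 CPM in bEnd.3 and 29.9 to 72.8 CPM in UV2, with Des at 0 throughout. None of 8 epithelial markers was tested, and they summed to 0.0679 to 0.224 CPM in bEnd.3 and 0.380 to 1.00 CPM in UV2, with Epcam, Krt5 and Krt14 at 0. Of 8 leukocyte markers 2 were tested and Cd68 was higher in UV2, with Cd3e and Adgre1 at 0. The list summed to 89.7 to 159 CPM in bEnd.3 and 253 to 343 CPM in UV2. Nearly all of both sums was Cd68, at 116 ± 37.2 CPM (SD, n = 3) in bEnd.3 and 285 ± 49.8 CPM in UV2. The part of these other cell type lists in the results was not tested. The labels do not tell whether the libraries of a line were cultured separately. P-values therefore measure the spread among these libraries alone, and that spread may be technical. bEnd.3 replicate 1 lay more than 1.5-fold below both other bEnd.3 libraries at 7 of 43 tested members (Ephb1, Sema6a, Sema7a, Plxnb1, Plxnb3, Ntn1 and Unc5b) and at 4.06% of all tested genes. UV2 replicate 3 did so within its line at 5 members (Epha1, Efnb3, Plxnb1, Ntn3 and Ntn4) and at 3.72% of tested genes.

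In all, 16 members rose in UV2 against bEnd.3, 19 fell, 8 were tested and not called, and 25 were too low to be tested. A gene passed at an adjusted p under 0.05 in the quasi-likelihood test of edgeR, adjusted by Benjamini-Hochberg over 12720 genes, and 67.1% of all tested genes did so (33.9% higher, 33.3% lower). Lines were apart, with no overlap of their libraries, at 35 of 43 members and at 73.2% of all tested genes. By a test against a 2-fold change (edgeR's glmTreat), 13 members were higher and 12 lower, 25 of 43, beside 19.4% of all tested genes (10.6% higher, 8.81% lower). The filter on low counts keeps a gene that is high in only 1 line, so these shares are not a test of the set. Among genes with an average log2 CPM above 3, 15 of 28 members passed the 2-fold test beside 13.1% of all such genes. Log2 ratios below are UV2 over bEnd.3 from the edgeR fit, ± SE. The median absolute log2 ratio was 2.21 over the tested members and 0.50 over all tested genes, while the signed medians were -0.03 and -0.01. Ligands and receptors moved in both directions. Of 24 tested ligands 10 were higher and 9 lower in UV2, and of 19 tested receptors 6 were higher and 10 lower. Without bEnd.3 replicate 1, 16 members were higher and 21 lower, and without UV2 replicate 3, 16 were higher and 20 lower. Leaving out bEnd.3 replicate 1 gave log2 ratios of -12.33 for Ephb1, -1.59 for Sema6a, 4.78 for Sema7a, -3.27 for Plxnb1, -4.11 for Plxnb3 and -4.20 for Ntn1, all still called, and 0.28 for Unc5b, still not called. Leaving out UV2 replicate 3 gave -2.62 for Epha1, -1.63 for Efnb3, -2.64 for Plxnb1, -5.33 for Ntn3 and 4.10 for Ntn4, all still called. In bulk RNA a change in the share of cells that express a gene and a change in RNA per cell cannot be told apart.

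**Figure D1:**
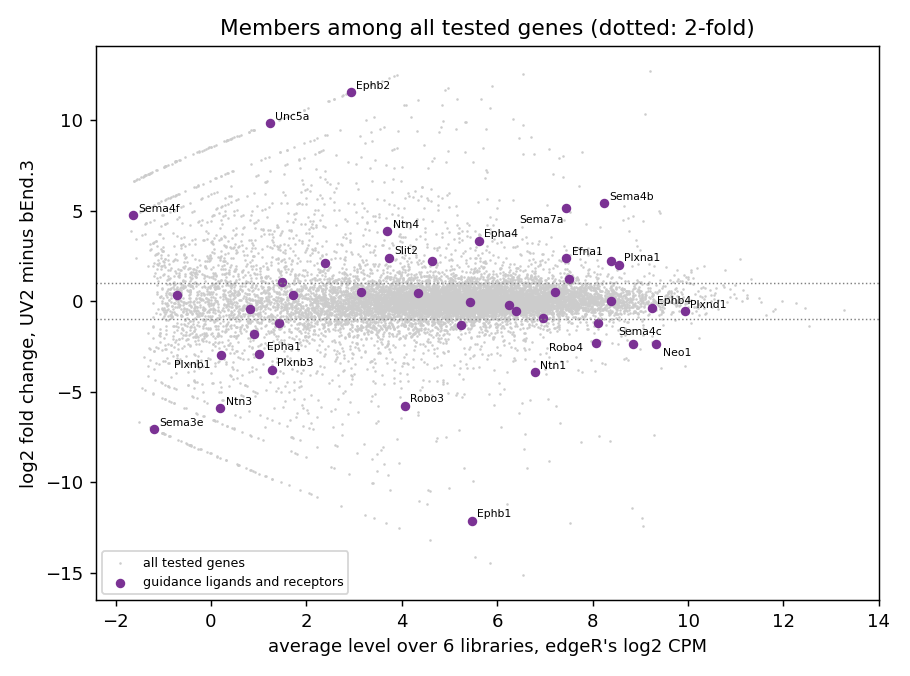
Log2 ratio (UV2 over bEnd.3, vertical axis) against average log2 CPM (horizontal axis) for all 12720 tested genes in grey and the 43 tested members in purple. Members lie beyond the dotted 2-fold lines on both sides, with Ephb2 and Unc5a at the top and Ephb1 at the bottom.

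**Figure D2:**
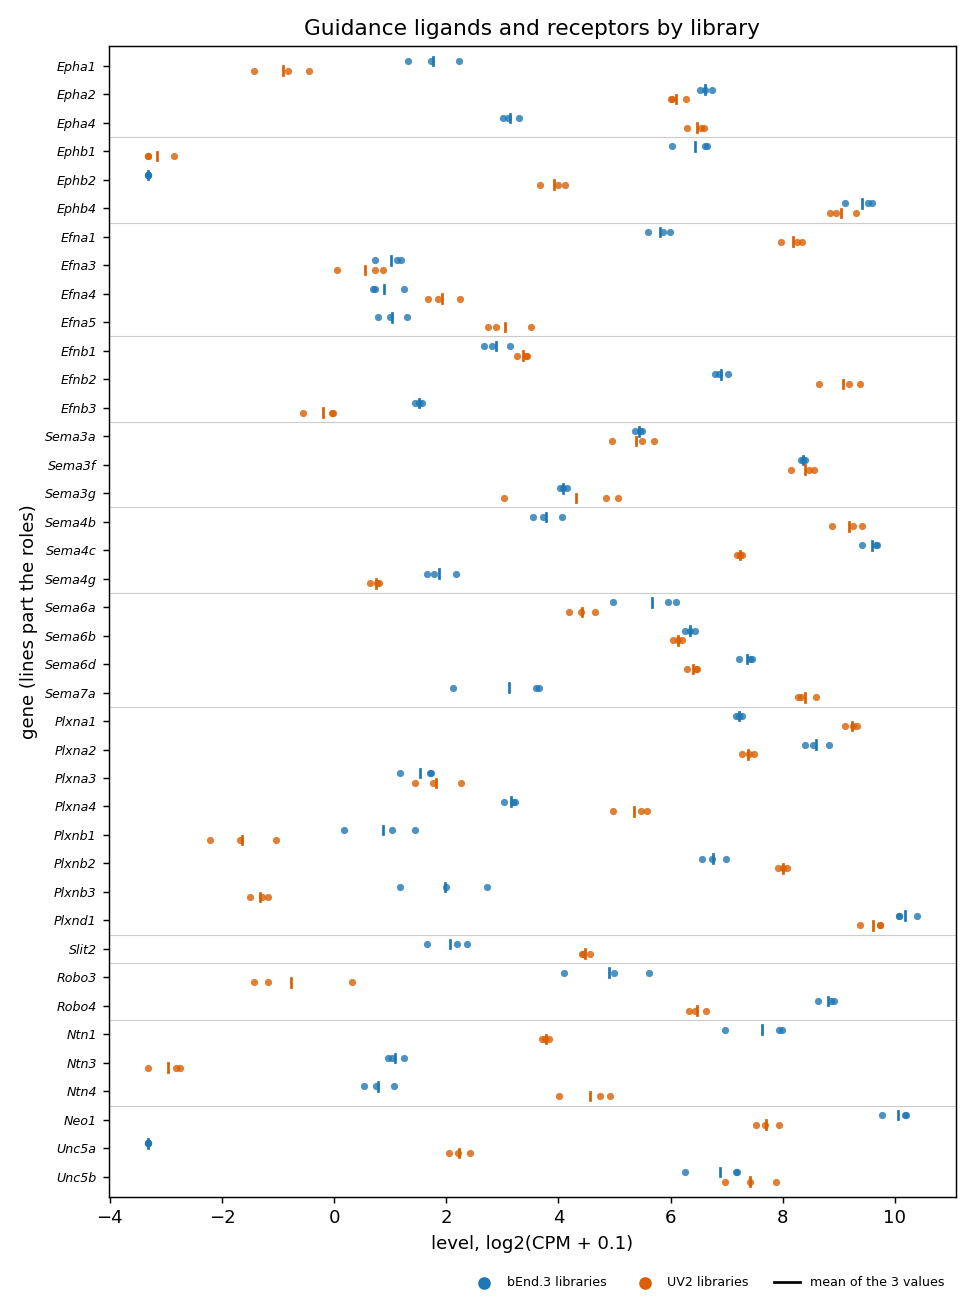
Level of each of the 40 tested members whose mean reached 1 CPM in the higher line, as log2(CPM + 0.1), with 1 point per library, bEnd.3 in blue and UV2 in orange, and a tick at the mean of the 3 log values. The lines do not overlap at 33 of the 40 members, beside 73.2% of all tested genes.

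Among Eph receptors the lines carried different B-type receptors beside a shared EphB4. Ephb1 (tyrosine kinase receptor for ephrin-B, chromosome 9, 101922128 to 102354693, build mm10, GRCm38.p6) stood at 64.8, 100.3 and 98.3 CPM in bEnd.3 replicates 1, 2 and 3 and had 1 count in the UV2 libraries together. The ratio of bEnd.3 to UV2 was 6264 (95% counting interval 1124 to 247451, adjusted p = 3.47e-07), and its fitted log2 ratio of -12.15 was -14.05 without UV2 replicate 3, which held that count. Ephb2 (chromosome 4, 136647536 to 136836326), a receptor of the same class, had the opposite pattern. It had 0 counts in every bEnd.3 library and 17.3, 15.9 and 12.6 CPM in UV2 replicates 1, 2 and 3, so its level was at least 388-fold higher there (adjusted p = 6.23e-06). A fold against 0 counts takes 3 counts summed over that line's libraries as its floor, and intervals and floors cover counting error only, since sequenced reads are not independent molecules. Of this pair bEnd.3 held Ephb1 and UV2 held Ephb2, each with the other at or under the floor.

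The 250 bases before the start of these genes are shown because each gene was read in 1 line and stood at or under the floor in the other. They are from RefSeq (GRCm38.p6), 5′ to 3′ on the gene's strand, with capitals at the GC box (GGGCGG or CCGCCC), the CCAAT box (CCAAT or ATTGG) and the TATA box (TATAAA or TTTATA), both strands searched. RefSeq's outer bounds of Ephb2, Sema7a and Unc5a reach beyond the start that its table lists and that is used here.
Ephb1, minus strand, chr9:102354694-102354943: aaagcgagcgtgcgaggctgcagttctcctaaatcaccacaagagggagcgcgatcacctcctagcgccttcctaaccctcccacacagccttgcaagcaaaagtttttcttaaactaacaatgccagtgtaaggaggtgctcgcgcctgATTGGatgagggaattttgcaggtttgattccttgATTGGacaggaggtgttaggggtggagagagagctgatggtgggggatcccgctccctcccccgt
Ephb2, minus strand, chr4:136836013-136836262: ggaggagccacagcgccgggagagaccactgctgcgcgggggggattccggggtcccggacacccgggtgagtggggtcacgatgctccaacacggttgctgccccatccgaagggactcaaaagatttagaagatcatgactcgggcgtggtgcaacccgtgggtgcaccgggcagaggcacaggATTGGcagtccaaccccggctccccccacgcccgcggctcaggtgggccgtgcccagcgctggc
Neither window held a GC box or a TATA box. The Ephb1 window had 2 CCAAT boxes and the Ephb2 window had 1, all in the ATTGG orientation. Of 32851 such windows in the table, 32.7% held a GC box, 33.8% a CCAAT box and 12.4% a TATA box. There were 10 CpG dinucleotides in the Ephb1 window and 20 in the Ephb2 window, against a median of 6 over all windows. A non-coding gene, Gm26846, lies opposite 2.34% of Ephb1's exonic bases, and whether counting used strand is not given in the sources used here.

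Ephb4, the venous receptor for ephrin-B2 (chromosome 5, 137350109 to 137374522), was the most abundant Eph receptor per transcript length in both lines. It had 555, 730.5 and 769 CPM in bEnd.3 and 459, 494 and 629.6 CPM in UV2, where the highest UV2 library lay above the lowest bEnd.3 library. The difference did not pass the test (log2 ratio -0.38 ± 0.16 SE, adjusted p = 0.0628). With the replicate number as a block it passed (adjusted p = 0.00844), as it did without bEnd.3 replicate 1 (adjusted p = 0.0118) and without UV2 replicate 3 (adjusted p = 0.0161). Its share of all Eph receptor CPM per kb was 77.2% ± 2.31 (SD, n = 3) in bEnd.3 and 77.6% ± 3.13 in UV2. Ephb3 and Ephb6 were not tested, with 29 and 7 counts in bEnd.3 and 1 count each in UV2.

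Of the A-type receptors, Epha4, which binds ephrins of both types (chromosome 1, 77367182 to 77515107), had 7.98, 8.51 and 9.78 CPM in bEnd.3 and 78.3, 92.5 and 96.4 CPM in UV2. All UV2 libraries were above all bEnd.3 libraries (log2 ratio 3.34 ± 0.12 SE, adjusted p = 4.04e-07). Epha2, the main receptor for ephrin-A1 in endothelium (chromosome 4, 141301221 to 141329384), was lower in UV2 by less than 2-fold, with 106, 97.2 and 91.6 CPM in bEnd.3 and 76.9, 64.9 and 63.8 CPM in UV2 (log2 ratio -0.52 ± 0.09 SE, adjusted p = 0.00168). Epha1 fell from 4.57, 2.40 and 3.19 CPM in bEnd.3 to 0.465, 0.630 and 0.270 in UV2 (log2 ratio -2.91 ± 0.37 SE, adjusted p = 0.000263). Its counts were not whole in any of the 6 libraries, and 6.97% of its exonic bases lie opposite the abundant gene Zyx, which was lower in UV2 too (log2 ratio -1.31), so its level is uncertain. Epha3 and Epha6 had 0 counts in every library, Epha5, Epha8 and Epha10 had 1 count each, and Epha7 had 11 counts in bEnd.3 and 0 in UV2. Per kb of transcript, the make-up of the Eph receptors in bEnd.3 was Ephb4, then Epha2 with 12.5% ± 2.85 and Ephb1 with 9.06% ± 0.929. In UV2 it was Ephb4, then Epha2 with 11.3% ± 2.39 and Epha4 with 8.96% ± 0.715, while Ephb2 made up 2.06% ± 0.548.

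Of 7 tested ephrins, 5 rose in UV2, 1 fell and 1 did not pass, beside 33.9% higher and 33.3% lower over all tested genes. The abundant Efna1 and Efnb2 both rose. Efna1, the lipid-anchored ephrin-A1 that is induced in endothelium by inflammatory signals (chromosome 3, 89271730 to 89280951), had 47.99, 57.8 and 63.7 CPM in bEnd.3 and 251, 325 and 305 CPM in UV2. The lowest UV2 library was far above the highest bEnd.3 library (log2 ratio 2.38 ± 0.14 SE, adjusted p = 4.14e-06). Efnb2, the transmembrane ephrin of arterial endothelium (chromosome 8, 8617235 to 8661242), had 110.5, 131 and 117 CPM in bEnd.3 and 401, 667 and 583 CPM in UV2, again with no overlap (log2 ratio 2.21 ± 0.18 SE, adjusted p = 2.68e-05). UV2 replicate 1 was the lowest UV2 library for both genes.

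Summed over the 8 ephrins, the level per transcript length was 68.6 ± 6.998 CPM per kb (SD, n = 3) in bEnd.3 and 322 ± 53.8 in UV2. The Eph receptors summed to 206 ± 28.7 and 158 ± 20.4. Their sums overlapped between the lines, with 173 in bEnd.3 replicate 1 and 181 in UV2 replicate 3. Efna1 and Efnb2 together made up nearly all of the ephrin sum in both lines. Efna1 held 55.5% ± 2.51 in bEnd.3 and 61.9% ± 2.52 in UV2, and Efnb2 held 36.4% ± 2.96 and 35.3% ± 3.11. The ratio of Efnb2 to Ephb4, both per kb of transcript, was 0.178, 0.160 and 0.136 in bEnd.3 replicates 1, 2 and 3 and 0.783, 1.21 and 0.830 in UV2. For Efna1 to Epha2 the ratio was 1.19, 1.57 and 1.84 in bEnd.3 and 8.64, 13.2 and 12.6 in UV2. Both ratios were higher in every UV2 library than in any bEnd.3 library.

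The minor ephrins did not all follow. Efna5 rose from 1.61, 2.36 and 1.90 CPM in bEnd.3 to 11.3, 7.32 and 6.55 in UV2 (log2 ratio 2.09 ± 0.26 SE, adjusted p = 0.000214), and Efna4 rose from 1.52, 1.55 and 2.27 CPM in bEnd.3 to 3.08, 4.65 and 3.51 in UV2 (log2 ratio 1.06 ± 0.24 SE, adjusted p = 0.00566). Efnb3 went the other way, with 2.60, 2.77 and 2.85 CPM in bEnd.3 and 0.887, 0.873 and 0.578 CPM in UV2 (log2 ratio -1.82 ± 0.23 SE, adjusted p = 0.000241). Efnb1 rose from 6.95, 6.31 and 8.72 CPM in bEnd.3 to 10.6, 9.45 and 10.7 in UV2 (log2 ratio 0.48 ± 0.15 SE, adjusted p = 0.0212), a call that was lost without bEnd.3 replicate 2 (adjusted p = 0.0654), UV2 replicate 1 (0.0537) or UV2 replicate 3 (0.0583). Efna3 had 2.06, 1.55 and 2.17 CPM in bEnd.3 and 0.929, 1.55 and 1.74 in UV2, which overlapped (log2 ratio -0.46 ± 0.28 SE, adjusted p = 0.183), although it lies in a cluster on chromosome 3 with its 2 higher neighbours, 32947 bases from Efna1 and 10453 bases from Efna4. Non-coding genes on the opposite strand overlap 14.6% of the exonic bases of Efna3 and 10.5% of those of Efna4.

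Among semaphorins the highest log2 ratios were those of Sema4b and Sema7a, of the membrane-bound classes 4 and 7. Sema4b, a transmembrane semaphorin (chromosome 7, 80186870 to 80226646), had 16.6, 13.1 and 11.6 CPM in bEnd.3 and 467, 611 and 685 CPM in UV2. Sema7a, the semaphorin with a lipid anchor, which binds plexin-C1 and integrins (chromosome 9, 57939596 to 57962865), had 4.26, 12.5 and 11.9 CPM in bEnd.3 and 319, 307 and 386 CPM in UV2. The lines were wide apart at both genes, and the bEnd.3 libraries of Sema7a differed among themselves, with replicate 1 lowest. The log2 ratio was 5.42 ± 0.20 SE for Sema4b (adjusted p = 4.95e-07) and 5.12 ± 0.36 SE for Sema7a (adjusted p = 1.17e-05). Sema4b counts were not whole in the 3 UV2 libraries, which happens when RSEM shares reads among genes.

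The windows before the starts of both genes are shown since these semaphorins rose together, with the same marking as above.
Sema4b, plus strand, chr7:80186620-80186869: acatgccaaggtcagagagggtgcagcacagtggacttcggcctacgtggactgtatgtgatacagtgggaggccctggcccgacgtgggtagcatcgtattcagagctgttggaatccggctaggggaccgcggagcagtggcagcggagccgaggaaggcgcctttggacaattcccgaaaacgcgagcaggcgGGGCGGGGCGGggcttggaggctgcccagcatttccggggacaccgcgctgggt
Sema7a, plus strand, chr9:57939862-57940111: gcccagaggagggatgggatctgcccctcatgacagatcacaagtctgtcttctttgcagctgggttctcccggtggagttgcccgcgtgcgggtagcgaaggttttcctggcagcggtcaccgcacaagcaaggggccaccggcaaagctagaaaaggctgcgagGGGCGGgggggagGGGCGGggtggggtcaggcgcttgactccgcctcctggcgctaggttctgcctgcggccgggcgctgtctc
Each window held 2 GC boxes, and neither held a CCAAT or TATA box. They had 20 and 17 CpG dinucleotides. RefSeq lists 2 starts for Sema4b, and the one with the lower coordinate is shown.

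Sema4c, a transmembrane semaphorin that binds plexin-B2 (chromosome 1, 36548639 to 36560699), moved against Sema4b. It had 807, 685 and 819.8 CPM in bEnd.3 and 145, 154 and 151 CPM in UV2, with little spread in UV2 (log2 ratio -2.36 ± 0.09 SE, adjusted p = 5.27e-07). Per kb of transcript it was the most abundant of all members in bEnd.3, at 198 ± 19.2 CPM per kb, and stood at 38.5 ± 1.08 in UV2. Its share of all semaphorin CPM per kb was 47.5% ± 2.21 in bEnd.3 and 8.08% ± 0.908 in UV2. Sema4b went from 0.841% ± 0.157 to 30.7% ± 1.96, and Sema7a from 0.705% ± 0.353 to 21.3% ± 2.10. The sum over all 20 semaphorins was 425, 391 and 432 CPM per kb in bEnd.3 and 416, 488 and 542 in UV2, with overlap between the lines. Sema4g fell from 3.05, 3.34 and 4.41 CPM in bEnd.3 to 1.61, 1.65 and 1.47 in UV2 (log2 ratio -1.20 ± 0.21 SE, adjusted p = 0.00124), and Sema4f had 1 count in bEnd.3 and 34 counts in UV2, which gives a UV2 to bEnd.3 ratio of 36.9 (95% counting interval 6.20 to 1502, adjusted p = 0.000476). Sema4a had 5 counts in bEnd.3 and 0 in UV2, and Sema4d, the ligand of plexin-B1, had 1 and 4.

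Most of the secreted class 3 semaphorins signal through plexins with a neuropilin partner. This class had 1 call among 4 tested members, beside 67.1% called over all tested genes. Sema3f, a ligand of neuropilin-2 (chromosome 9, 107681499 to 107710475), had 338, 322 and 330.0 CPM in bEnd.3 and 284, 354 and 377 CPM in UV2 (log2 ratio 0.03 ± 0.11 SE, adjusted p = 0.788). It passed the test as higher in UV2 with chromosome medians removed (log2 ratio 0.30, adjusted p = 0.0392), where the median log2 ratio of chromosome 9, at -0.26, is taken off. Sema3a, a ligand of neuropilin-1, had 43.95, 44.9 and 41.3 CPM in bEnd.3 and 30.9, 44.6 and 51.9 in UV2 (log2 ratio -0.03 ± 0.17 SE, adjusted p = 0.885). The ranges of the lines overlapped at both genes, and Sema3f was the more abundant in each line. Sema3g had 16.8, 17.6 and 16.2 CPM in bEnd.3 and 8.07, 28.7 and 33.3 CPM in UV2, where replicate 1 was below and replicates 2 and 3 were above the bEnd.3 range (log2 ratio 0.47 ± 0.43 SE, adjusted p = 0.361). Without UV2 replicate 1 it passed the test (log2 ratio 0.89, adjusted p = 0.000671). Sema3e, the neuropilin-independent ligand of plexin-D1, was low, with 0.852, 0.611 and 0.611 CPM in bEnd.3 and 0 counts in the other line, a level at least 16.2-fold lower (adjusted p = 0.000554). Sema3b had 38 counts in bEnd.3 and 16 in UV2, Sema3c 31 and 6, and Sema3d 36 and 18, and none was tested.

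Transmembrane class 6 semaphorins, which bind A-type plexins, were lower in UV2 at 3 of 4 tested members, beside 33.3% of all tested genes. None of these 3 passed the 2-fold test. Sema6d had 171, 149 and 175 CPM in bEnd.3 and 78.6, 88.8 and 86.9 CPM in UV2 (log2 ratio -0.96 ± 0.09 SE, adjusted p = 4.18e-05). Sema6a, which binds plexin-A2 and plexin-A4, had 31.2, 68.2 and 61.6 CPM in bEnd.3 and 18.2, 21.1 and 25.1 in UV2 (log2 ratio -1.32 ± 0.28 SE, adjusted p = 0.00341). No UV2 library of either gene reached the bEnd.3 range, and bEnd.3 replicate 1 of Sema6a lay near it. Sema6b fell from 86.2, 76.2 and 81.6 CPM in bEnd.3 to 73.5, 70.1 and 65.6 in UV2 (log2 ratio -0.22 ± 0.07 SE, adjusted p = 0.0287), a small change whose call was lost on leaving out bEnd.3 replicate 1 (adjusted p = 0.0646), bEnd.3 replicate 3 (0.0599), UV2 replicate 2 (0.0760) or UV2 replicate 3 (0.110). Sema6c stayed under 1 CPM in every library (log2 ratio 0.32 ± 0.34 SE, adjusted p = 0.432). Sema5a and Sema5b had 8 counts or fewer over all libraries.

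**Figure D3:**
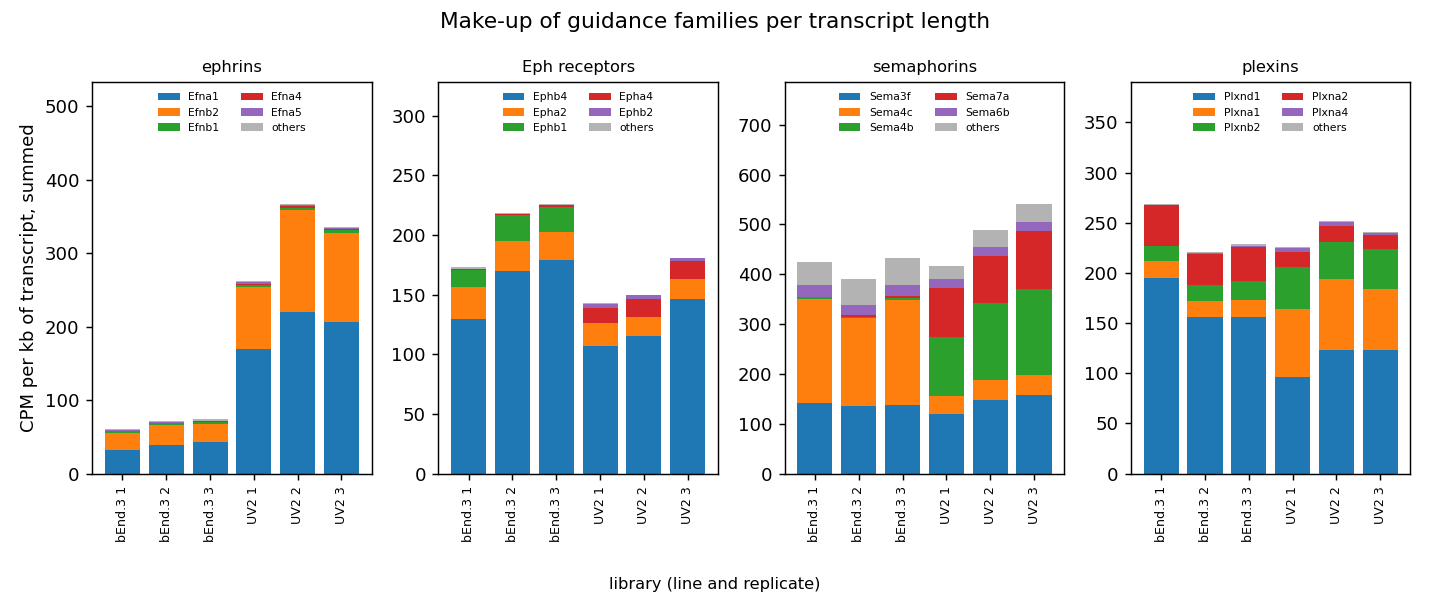
Stacked CPM per kb of transcript (vertical axis) of the 5 most abundant members and the others of 4 families, with 1 bar for each of the 3 bEnd.3 and 3 UV2 libraries. The ephrin total is higher in all UV2 libraries, while Eph receptor totals overlap between the lines. Semaphorin and plexin totals overlap as well, and their members take other shares.

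Plexins, the semaphorin receptors, had totals that overlapped between the lines and a different make-up. The sum over the 9 plexins was 269, 221 and 228 CPM per kb in bEnd.3 and 226, 251 and 241 in UV2. Plxnd1, the plexin of vascular endothelium (chromosome 6, 115954811 to 115995339), had 1345, 1078 and 1078 CPM in bEnd.3 and 667, 849 and 849.7 CPM in UV2 (log2 ratio -0.57 ± 0.13 SE, adjusted p = 0.00530). It was the most abundant plexin per kb in both lines, with 70.5% ± 2.05 of the plexin sum in bEnd.3 and 47.6% ± 4.32 in UV2. Its lower level in UV2 was under 2-fold.

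Among A-type plexins, the signalling partners of neuropilins, Plxna1 and Plxna2 moved in opposite directions. Plxna1 (chromosome 6, 89316313 to 89362613) had 155, 143 and 149 CPM in bEnd.3 and 612, 639 and 555 CPM in UV2 (log2 ratio 2.02 ± 0.08 SE, adjusted p = 6.62e-07). Plxna2 (chromosome 1, 194619791 to 194816869) had 450.4, 339 and 373 CPM in bEnd.3 and 169, 178 and 154 CPM in UV2 (log2 ratio -1.21 ± 0.11 SE, adjusted p = 5.68e-05). Plxna1 passed the 2-fold test and Plxna2 missed it (adjusted p = 0.0705). The replicates of each line were close at both genes and the lines did not overlap. The ratio of Plxna1 to Plxna2 per kb of transcript was 0.421, 0.514 and 0.488 in bEnd.3 and 4.42, 4.38 and 4.40 in UV2. Plxna4 rose with Plxna1, from 8.97, 8.10 and 9.23 CPM in bEnd.3 to 44.02, 47.9 and 31.2 in UV2 (log2 ratio 2.22 ± 0.17 SE, adjusted p = 1.76e-05), and Plxna3, with 3.18, 2.16 and 3.19 CPM in bEnd.3 and 4.69, 2.62 and 3.28 in UV2, did not pass (log2 ratio 0.31 ± 0.26 SE, adjusted p = 0.321). An opposite-strand gene, Gm26811, overlaps 10.7% of the exonic bases of Plxna1, and Plxna4os3 overlaps 0.854% of those of Plxna4.

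The B-type plexins, which include receptors of class 4 semaphorins, split as well. Plxnb2 (chromosome 15, 89155546 to 89182018) had 94.5, 106 and 127 CPM in bEnd.3 and 271, 241 and 255 CPM in UV2 (log2 ratio 1.23 ± 0.11 SE, adjusted p = 4.84e-05), a change that missed the 2-fold test (adjusted p = 0.0536). Plxnb3 fell from 2.15, 3.91 and 6.55 CPM in bEnd.3 to 0.254, 0.339 and 0.308 in UV2 (log2 ratio -3.80 ± 0.49 SE, adjusted p = 0.000275) and Plxnb1, the receptor of Sema4D, from 1.03, 2.61 and 1.93 CPM to 0.211, 0.388 and 0.116 (log2 ratio -2.99 ± 0.50 SE, adjusted p = 0.00109). Gm7628 lies opposite 2.97% of the exonic bases of Plxnb1. Both genes were low in bEnd.3, with replicate 1 lowest, and lower still in every UV2 library. Plxnc1, the receptor of Sema7a, had 27 counts in bEnd.3 and 62 in UV2 and was under the filter. The ratio of Sema4c to Plxnb2 per kb was 11.9 ± 2.01 (SD, n = 3) in bEnd.3 and 0.983 ± 0.0839 in UV2.

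**Figure D4:**
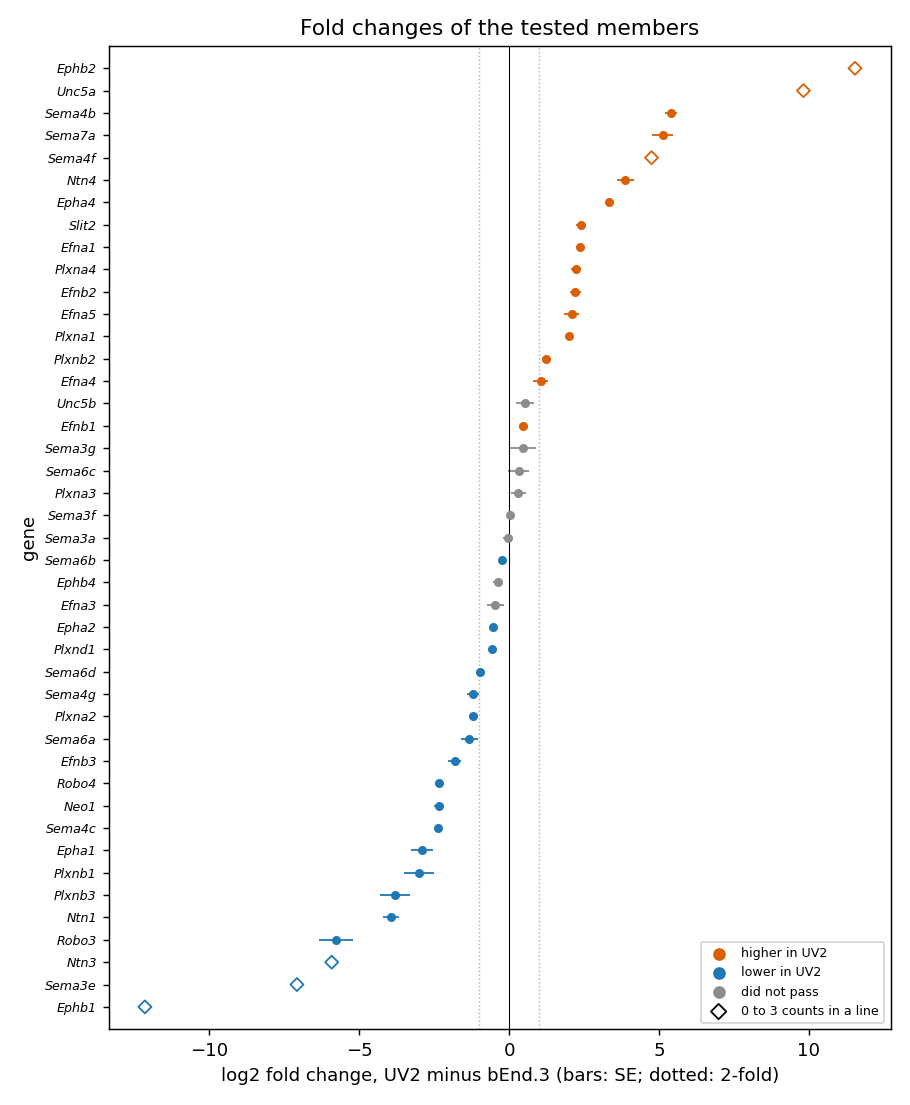
Log2 ratio (UV2 over bEnd.3, horizontal axis) of each of the 43 tested members in order of size, with SE bars, in orange for 16 higher, blue for 19 lower and grey for 8 that did not pass. Open diamonds mark genes with 0 to 3 counts in 1 line, whose fitted values depend on the prior count, and dotted lines mark 2-fold.

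In the Slit and Robo families both tested receptors were lower in UV2 and the 1 tested ligand was higher. Over all tested genes 33.3% were lower and 33.9% higher. Robo4, the endothelial Robo that steadies the vessel wall (chromosome 9, 37401902 to 37414023), had 484, 396 and 466 CPM in bEnd.3 and 99.2, 80.03 and 86.9 CPM in UV2 (log2 ratio -2.34 ± 0.11 SE, adjusted p = 1.71e-06). Robo3 (chromosome 9, 37416045 to 37433436), a Robo known from commissural axons, had 48.8, 16.98 and 31.6 CPM in bEnd.3 and 1.14, 0.339 and 0.270 CPM in UV2 (log2 ratio -5.78 ± 0.57 SE, adjusted p = 6.87e-05). Every UV2 library was below every bEnd.3 library at both genes, and the spread was wide for Robo3, whose log2 ratio was -6.71 without UV2 replicate 1. The 2 genes are neighbours on chromosome 9 on opposite strands, with 2021 bases between them. Robo4 made up 94.6% ± 2.10 of the Robo sum per kb in bEnd.3 and 99.5% ± 0.357 in UV2. Robo1 had 4 counts over all libraries and Robo2 had 0.

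Slit2, the secreted Robo ligand (chromosome 5, 47981291 to 48307735), had 3.05, 5.05 and 4.48 CPM in bEnd.3 and 21.4, 21.5 and 23.6 CPM in UV2, with no overlap (log2 ratio 2.40 ± 0.18 SE, adjusted p = 1.53e-05). Slit3 went the other way but did not pass the filter on low counts. It had 0.359, 3.09 and 1.70 CPM in bEnd.3, where replicate 1 was far below the others, and 2 counts in the UV2 libraries together, a bEnd.3 to UV2 ratio of 61.7 (95% counting interval 16.7 to 514). With no filter it was called lower (log2 ratio -5.69, adjusted p = 0.00083). Slit1 had 7 counts in bEnd.3 and 8 in UV2.

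Of the netrins, Ntn1 was lower and Ntn4 higher in UV2. Ntn1, the secreted ligand of Dcc, neogenin and UNC5 receptors (chromosome 11, 68209364 to 68386826), had 125, 253 and 243 CPM in bEnd.3 and 13.5, 14.2 and 12.96 CPM in UV2. Ntn4, a netrin of basement membranes that binds laminins (chromosome 10, 93641049 to 93745972), had 1.57, 1.34 and 2.003 CPM in bEnd.3 and 30.3, 26.5 and 16.04 CPM in UV2. The lines did not overlap at either gene, bEnd.3 replicate 1 was lowest in its line for Ntn1, and UV2 replicate 3 was lowest for Ntn4. The log2 ratio was -3.94 ± 0.27 SE for Ntn1 (adjusted p = 1.11e-05) and 3.87 ± 0.28 SE for Ntn4 (adjusted p = 1.45e-05). Per kb of transcript the netrin sum was 36.1 ± 12.2 CPM per kb in bEnd.3 and 9.01 ± 2.07 in UV2. Ntn3 had 1.84, 1.95 and 2.27 CPM in bEnd.3 and 2 counts in UV2, a bEnd.3 to UV2 ratio of 71.8 (95% counting interval 19.5 to 598, adjusted p = 2.2e-05), and the genes Tbc1d24 and BC028777 overlap 1.77% and 2.76% of its exonic bases. Ntn5 had 3 counts in bEnd.3 and 5 in UV2.

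Among netrin receptors, neogenin was by far the most abundant in bEnd.3. Neo1, which binds netrins and repulsive guidance molecules (chromosome 9, 58874679 to 59036614), had 876, 1158 and 1180.1 CPM in bEnd.3 and 183, 205 and 243 CPM in UV2, with no overlap (log2 ratio -2.35 ± 0.15 SE, adjusted p = 7.47e-06). Unc5b, the UNC5 receptor of endothelium (chromosome 10, 60762594 to 60831581), had 76.6, 146 and 144 CPM in bEnd.3 and 125, 234 and 169.5 CPM in UV2. The lines overlapped, replicate 1 was lowest in each, and the difference did not pass (log2 ratio 0.53 ± 0.29 SE, adjusted p = 0.140). With the replicate number as a block it passed (log2 ratio 0.54, adjusted p = 0.00551). Per kb of transcript Neo1 stood at 145 ± 22.9 and Unc5b at 20.8 ± 6.70 CPM per kb in bEnd.3, and at 28.5 ± 4.14 and 30.01 ± 9.38 in UV2, so in UV2 these receptors did not differ beyond their spread.

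Unc5a, a receptor of the same family known from neurons (chromosome 13, 54945151 to 55006018), was read in the UV2 libraries and not in those of bEnd.3. It had 0 counts in every bEnd.3 library and 5.28, 4.02 and 4.55 CPM in UV2, so its level was at least 117-fold higher there (adjusted p = 2.2e-05). The gene Hk3 lies opposite 0.851% of its exonic bases. Dcc had 1 count over all libraries and Unc5c and Unc5d had 0. The window before the Unc5a start is shown since it too had 0 counts in 1 line, marked as above.
Unc5a, plus strand, chr13:54949161-54949410: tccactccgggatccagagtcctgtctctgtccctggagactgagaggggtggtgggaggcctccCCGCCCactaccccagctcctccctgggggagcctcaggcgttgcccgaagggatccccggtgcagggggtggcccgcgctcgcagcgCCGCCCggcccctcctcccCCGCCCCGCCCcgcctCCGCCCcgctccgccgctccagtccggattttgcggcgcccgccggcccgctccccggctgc
The window held 5 GC boxes, no CCAAT box and no TATA box, and 25 CpG dinucleotides.

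By level per transcript length, the order of the members differed between the lines. The 6 highest in bEnd.3 were Sema4c at 198 ± 19.2 CPM per kb (SD, n = 3), Plxnd1 at 169 ± 22.3, Ephb4 at 159 ± 26.6, Neo1 at 145 ± 22.9, Sema3f at 139 ± 3.36 and Robo4 at 116 ± 11.97. The difference between any neighbours in this order was smaller than the sum of their SDs, except between Sema3f and Robo4, and the next, Efna1 at 38.2 ± 5.36, lay well below. In UV2 the 7 highest were Efna1 at 198 ± 25.7, Sema4b at 149 ± 27.96, Sema3f at 142 ± 20.3, Ephb4 at 123 ± 21.00, Efnb2 at 115 ± 28.4, Plxnd1 at 114 ± 15.3 and Sema7a at 102 ± 12.9. Here each neighbouring pair differed by less than the sum of its SDs. Sema3f, Ephb4 and Plxnd1 were in both sets.

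Of the 25 members that the filter left out, 5 had 0 counts in every library (Epha3, Epha6, Robo2, Unc5c and Unc5d). The highest value of any of them was 3.09 CPM, for Slit3 in bEnd.3 replicate 2. When tested with no filter, 2 of these were called higher in UV2 (Efna2 and Plxnc1) and 4 lower (Epha7, Ephb3, Sema3c and Slit3), each on few counts. In that fit 9041 of 17283 genes were called. Efna2 had 12 counts in bEnd.3 and 37 in UV2, and Ephb3 had a bEnd.3 to UV2 ratio of 26.7 (95% counting interval 4.42 to 1090.0).

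The other genes of the pathway came from 3 lists of partners and effectors, to be read against the 67.1% of all tested genes that were called (33.9% higher, 33.3% lower). Of 11 tested co-receptors and other ligands, in UV2 6 rose, 3 fell and 2 did not pass, with a median log2 ratio of 0.42. The semaphorin co-receptors Nrp1 and Nrp2 were both higher by less than 2-fold, Nrp1 from 351 ± 69.9 to 519.6 ± 102 CPM (log2 ratio 0.56 ± 0.18 SE, adjusted p = 0.0234) and Nrp2 from 359 ± 29.3 to 696 ± 15.5 CPM (log2 ratio 0.96 ± 0.08 SE, adjusted p = 2.58e-05). Flrt2, a leucine-rich repeat protein that binds UNC5 receptors, had 312, 620.5 and 678 CPM in bEnd.3 and 67.8, 39.1 and 44.03 CPM in UV2 (log2 ratio -3.42 ± 0.34 SE, adjusted p = 6.81e-05). Draxin, a secreted ligand of Dcc, had 3 counts in bEnd.3 and 6.46, 8.34 and 7.02 CPM in UV2, which is a UV2 to bEnd.3 ratio of 184 (95% counting interval 62.5 to 894, adjusted p = 2.62e-06). The lines did not overlap at any of these 4 genes, beside 73.2% of all tested genes. At Nrp1 they were barely apart, with 419 CPM in the highest bEnd.3 library and 425 CPM in the lowest UV2 library.

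Of 7 tested proteases and trafficking genes, 4 were higher, 2 lower and 1 did not pass, beside 67.1% called over all tested genes, with a median log2 ratio of 0.26. The membrane-bound metalloproteinase Mmp14, which can cleave guidance receptors at the cell surface, had 62.2, 52.9 and 48.8 CPM in bEnd.3 and 651, 909 and 869 CPM in UV2 (log2 ratio 3.89 ± 0.16 SE, adjusted p = 8.15e-07). The endocytic adaptor Dab2 fell from 385 ± 73.2 to 273 ± 20.1 CPM (log2 ratio -0.50 ± 0.13 SE, adjusted p = 0.0111), and the ephrin sheddase Adam10 had 498 ± 14.3 and 513 ± 30.1 CPM (log2 ratio 0.04 ± 0.07 SE, adjusted p = 0.602). Of 51 tested intracellular effectors, 16 were higher, 18 lower and 17 did not pass, a share of calls near the 67.1% over all tested genes. Their median log2 ratio was -0.03, and 10 passed the 2-fold test (19.4% of all tested genes did so). Ablim3, an actin-binding protein, rose from 0.341 ± 0.0944 to 11.6 ± 3.52 CPM (log2 ratio 5.06 ± 0.33 SE, adjusted p = 7.9e-06), and Crmp1, a collapsin response mediator downstream of semaphorins, fell from 86.3 ± 22.3 to 15.3 ± 1.02 CPM (log2 ratio -2.50 ± 0.18 SE, adjusted p = 1.48e-05). The GTPases Rac1 (log2 ratio -0.03 ± 0.07 SE, adjusted p = 0.756) and Cdc42 (log2 ratio 0.46 ± 0.08 SE, adjusted p = 0.00164) and the filament-severing protein Cfl1 (log2 ratio 0.02 ± 0.09 SE, adjusted p = 0.864) were abundant in both lines, and of these Cdc42 alone passed the test.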

How the data were processed

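Polyadenylated RNA from trypsin-detached cells was made into stranded libraries (TruSeq), per the labels' protocols. Per the submitters' processing notes, Trim Galore, STAR, RSEM and the build mm10 were used, and their versions, the annotation and the strand setting were not given in the sources used here. Deposited by the authors were expected counts per gene symbol, not normalized, for 24411 genes. Expected counts share reads between genes that both fit, and reads of strain BALB/c can map less well to the C57BL/6 reference, which was not tested.

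Counts were rounded, filtered with filterByExpr (12720 genes kept), scaled by TMM and fitted in edgeR 4.0.16 (R 4.3.3) with group as the only term. Benjamini-Hochberg adjustment covered every tested gene, a call needed an adjusted p under 0.05, and glmTreat tested changes beyond 2-fold. SE is the log2 ratio divided by the square root of F. Levels are CPM, and levels per kb use the GENCODE M21 transcript with the longest coding sequence. Positions and promoter windows are from RefSeq (GRCm38.p6, the assembly of mm10), where all 68 members matched by symbol and 58 had a window. The labels do not say that equal replicate numbers share a batch. Deviations of same-numbered libraries correlated at 0.12, 0.21 and 0.26 over the tested genes for replicates 1, 2 and 3, so the fit with the replicate number as a block is given where it changes a call.

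Every member is accounted for, and the 40 tested members that reached a mean of 1 CPM in the higher line are described by library. In each partner list the highest and lowest called genes with at least 1 CPM and no overlap were named, and always Nrp1 and Nrp2. Other list genes were chosen after their values were seen. Members and lists were chosen with earlier results of these data known. Alternatives were DESeq2 1.42.0, limma-voom (limma 3.58.1), 2 other scalings, 2 other filters, the replicate block, removal of chromosome medians and leaving out each library. The procedure was tested on simulated data. Marker genes that are not named are not reported here.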

Additional observations from a re-analysis of the deposited data

How the results depend on the processing

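Under 14 alternatives the counts of called genes and members stayed within 1.5 times those reported. Leaving out each library in turn gave 15 to 16 members higher and 18 to 21 lower in UV2, 26 to 27 beyond 2-fold, 7793 to 8742 genes called and 2299 to 2646 genes beyond 2-fold. With the replicate number as a block, 17 members were higher and 20 lower, and 8682 genes were called. The block added the calls of Ephb4 and Unc5b and changed no other call among the 40 members described, as same-numbered libraries were taken as pairs. Of these 40 members, 33 kept direction and side of the threshold under every alternative. The 7 that did not were Efnb1, Ephb4, Sema3a, Sema3f, Sema3g, Sema6b and Unc5b. Ephb4 was also called lower with total counts (adjusted p = 0.0327) and by DESeq2 (0.0356). Among these 40 members signs turned only for Sema3a, Sema3f and Sema3g, none of them called. Sema3a had a log2 ratio of 0.0579 with chromosome medians removed and from -0.198 to 0.166 when each library was left out in turn. Sema3f had -0.0328 with total counts and from -0.0482 to 0.158 when each library was left out, and Sema3g had -0.24 with chromosome medians removed, where a median of 0.71 was taken off for chromosome 14. For the other turned signs the cause was not tested. The 16 members with fewer than 10 counts over all libraries cannot be compared at this depth.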
